A study of Bos taurus with 12 samples.

Results

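The cytosolic ribosomal protein genes are described here in liver biopsies of early lactating Holstein cows. A gene was taken when its symbol was RPL or RPS followed by digits, with or without an added A, L, X or Y, or was RPLP0 to RPLP2 or RPSA, and when its transcript on the array carried no other symbol. Where several transcripts carried 1 symbol, the brightest of them, by its mean signal in the 12 cows, was used. This gave 44 genes, 27 of the large and 17 of the small ribosomal subunit, out of 18010 genes with a transcript of their own and 26773 transcripts in all. The rule used no measured difference between the groups.

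Control cows received a total mixed ration with 1% wheat bran, and GSGME cows received the same ration with 1% of GSGME, a meal extract of grape seed and grape marc that is rich in flavonoids, both on a dry matter basis and from 3 weeks before the expected calving. Biopsies were taken in week 1 after calving (day 7 ± 2), and RNA of 6 control and 6 GSGME cows, primiparous and multiparous animals in each group, was hybridised to 1 Affymetrix Bovine Gene 1.0 ST array per cow. Cows are named by group and animal number, as in the labels. Values are log2 signals after background correction and normalization across arrays, so that a difference of 1 is a doubling of the signal. Differences are GSGME minus control.

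A ribosome is built of a large and a small subunit, each a core of ribosomal RNA clothed with proteins that are present in 1 copy each, apart from the acidic stalk proteins. The mRNAs of nearly all these proteins begin with a short run of pyrimidines, the TOP motif (terminal oligopyrimidine), through which the kinase complex mTORC1 sets their translation together when nutrients and growth factors change. In hepatocytes, which make albumin and most other plasma proteins, they belong to the abundant mRNAs.

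The 12 hepatocyte markers measured had mean signals between 8.89 and 13.77, all above the signal of the median transcript (6.07). Array medians lay between 6.02 and 6.17 and correlations between arrays between 0.968 and 0.990. The array of control_825 had the narrowest spread of signals, with an interquartile range of 2.53 against 2.67 to 2.88 in the other 11 cows. Over all 26773 transcripts, 0 had an adjusted p under 0.05 (limma, Benjamini-Hochberg). At an unadjusted p under 0.05, limma called 718 higher and 849 lower and the methods' t-test 637 higher and 893 lower, so that every call below rests on an unadjusted p.

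Nearly all ribosomal protein genes had a slightly higher mean signal in GSGME cows. The mean was higher in 42 of 44 genes, which is 95.5%, against 45.2% of all transcripts and 53.0% of the 13386 transcripts brighter than the median transcript. The median difference of the 44 genes was 0.13, against -0.015 for all transcripts and 0.01 for the brighter ones, and the differences ran from -0.20 to 0.73. All 27 large subunit genes had the higher mean in GSGME cows (median difference 0.13), and so had 15 of the 17 small subunit genes (median difference 0.10). These genes vary together between cows, as shown further on, so that the 42 are not 42 independent observations.

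The differences of single genes were small beside the spread between cows. Of the 44, 36 differed by less than 1.2-fold, and the 95% interval of the difference included 0 in 39. At an unadjusted p under 0.05, 5 genes were higher in GSGME cows (RPL7A, RPL18, RPL39, RPS3 and RPL38) and 0 lower, against 2.68% of all transcripts called higher and 3.17% called lower. The lowest adjusted p among the 44 was 0.830 (limma, Benjamini-Hochberg over all transcripts). At the study's criterion of a fold change beyond 1.3 together with p under 0.05, 1 gene was higher, RPL7A, and 0 lower, against 1.2% and 0.624% of all transcripts. The methods' t-test gave 1 gene higher at the criterion and 4 at p alone, against 0.844% and 2.38% of all transcripts.

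**Figure D1:**
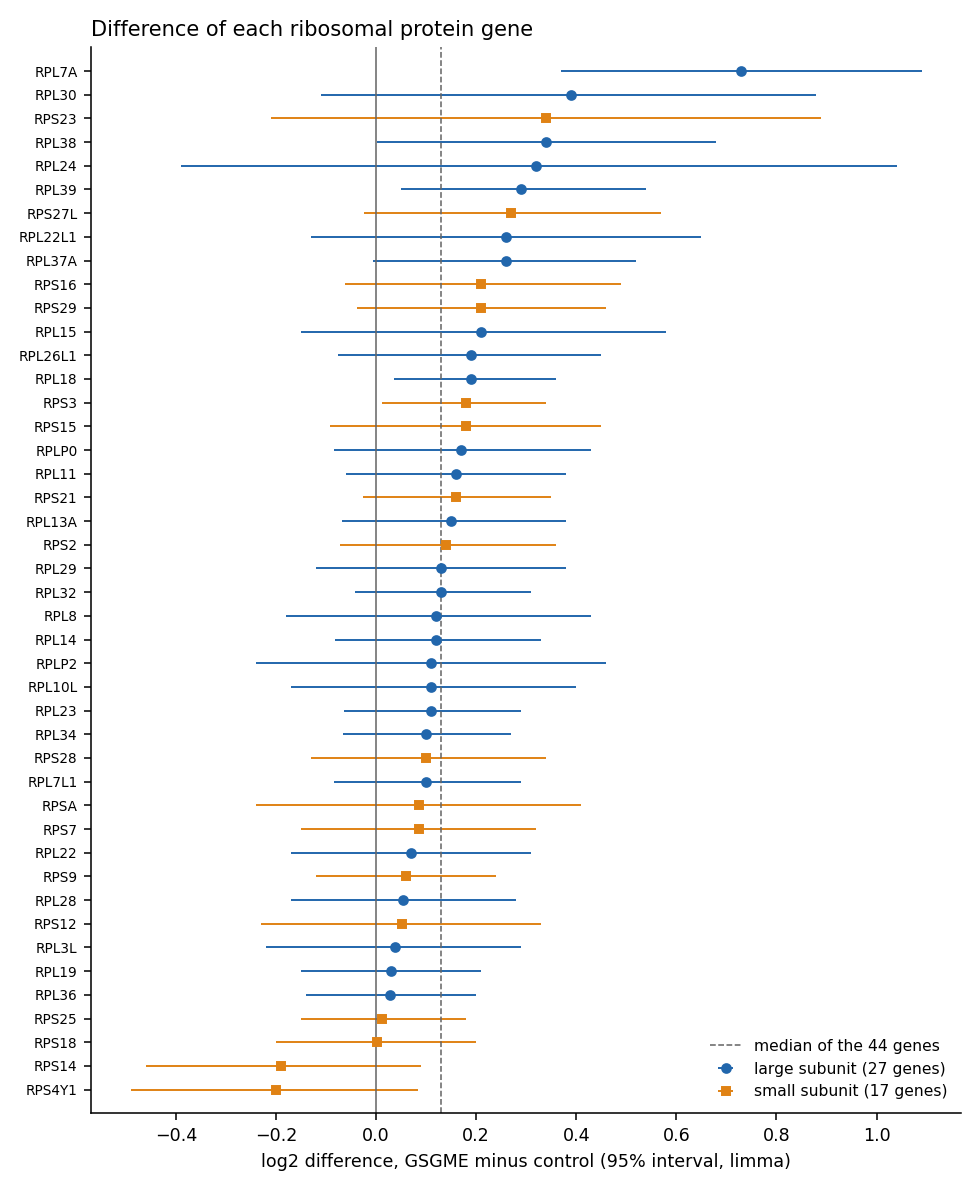
The log2 difference between GSGME and control cows (x axis, GSGME minus control, 6 cows per group) is plotted for each of the 44 ribosomal protein genes (y axis), with the 95% interval from limma. Circles are large and squares small subunit genes, and the dashed line is the median of 0.13. All genes but RPS14 and RPS4Y1 lie above 0, while 39 intervals include 0.

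**Figure D2:**
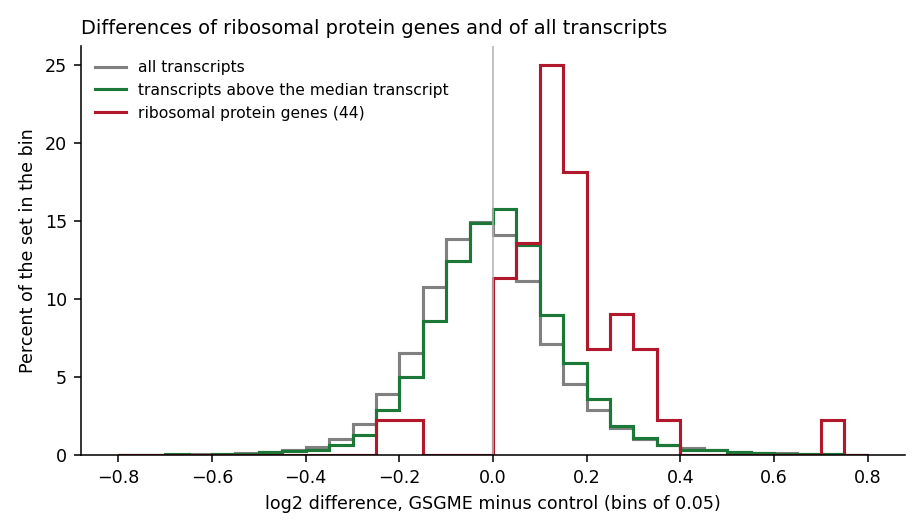
The percent of transcripts (y axis) is plotted in bins of 0.05 of the log2 difference, GSGME minus control (x axis), for the 44 ribosomal protein genes, all 26773 transcripts and the 13386 transcripts above the median transcript. The ribosomal protein genes sit to the right of both backgrounds, with RPL7A alone above 0.7.

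Among the large subunit genes, RPL7A, which encodes a structural protein of the subunit, had the largest difference. Its log2 signal had a lowest, median and highest value of 5.30, 5.85 and 6.0 in control cows and of 6.15, 6.40 and 7.15 in GSGME cows. The lowest GSGME cow (GSGME_821) thus lay above the highest control cow (control_1017), and the groups did not overlap. The means were 5.75 ± 0.28 and 6.48 ± 0.36 (SD, n = 6 each), a difference of 0.73 (SE 0.17) or 1.66-fold, with an adjusted p of 0.830 in limma (Benjamini-Hochberg). RPL7A passed the study's criterion in every alternative run, with differences between 0.59 (without GSGME_741) and 0.79 (without GSGME_821) when single cows were left out. Its signal lay close to that of the median transcript (6.07), unlike most other members.

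RPL18, also a structural protein of the large subunit, was the other gene whose groups did not overlap, and no gene had every GSGME cow below every control cow. Over all transcripts, 0.0859% had every GSGME cow above every control cow and 0.131% every GSGME cow below. RPL18 signals were 11.49, 11.71 and 11.75 (lowest, median, highest) in control cows and 11.76, 11.84 and 11.99 in GSGME cows, so that the gap between the groups was 1 unit of the second decimal, the precision of the deposited values. The difference was 0.19 (SE 0.075), and RPL18 had the smallest spread within groups of the 44 genes (SD 0.09). The unadjusted limma p rose just past the threshold without GSGME_741 (0.0502) or without control_1150 (0.0504).

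RPL39, a very small protein at the wall of the tunnel through which the new peptide leaves, had signals of 9.78, 10.10 and 10.36 in control cows and of 10.04, 10.39 and 10.50 in GSGME cows. Of the GSGME cows, 5 lay above the highest control, and GSGME_1001 lay at the level of the middle control cows. The difference was 0.29 (SE 0.11, 1.23-fold), and the call was lost without control_819 (p 0.0531) or control_825 (p 0.0511) and with array weights (p 0.0627). RPL39 was represented by 5 transcripts, 4 of them with identical values in every cow, and the fifth, with a mean of 8.27, differed by 0.21 with an unadjusted limma p of 0.0645.

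RPL38, which in mice is needed for the translation of particular homeobox mRNAs, had a low signal, with 4.84, 5.11 and 5.38 in control cows and 4.94, 5.45 and 6.01 in GSGME cows. The groups overlapped, with 3 GSGME cows above the highest control, GSGME_741 the highest of all. The difference of 0.34 (SE 0.16, 1.26-fold) had a limma p of 0.0491 and a p of 0.0784 in the methods' t-test. The call was lost in 9 of the 12 fits that left out 1 cow. Without GSGME_741 the difference was 0.22 (p 0.121), and in the other 8 of these fits it was 0.29 to 0.36 (p 0.0561 to 0.102).

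RPL37A and RPL30 did not pass the test. RPL37A, a zinc-binding protein, lay at 10.51, 11.04 and 11.12 in control cows and at 10.86, 11.29 and 11.38 in GSGME cows, a difference of 0.26 (SE 0.12) with a limma p of 0.0544. RPL30, which binds a kinked RNA fold and in yeast also its own transcript, had a difference of 0.39 (SE 0.23), the largest after RPL7A. It rested on control_825, at 5.19 against 6.55 to 6.74 in the other control cows, and without that cow it was 0.14. RPL11, which with RPL5 and 5S ribosomal RNA can bind the p53 regulator MDM2 when ribosome assembly is disturbed, differed by 0.16 (SE 0.10, limma p 0.142).

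The stalk of the large subunit, where elongation factors dock, is anchored by RPLP0 and carries RPLP2. RPLP0 lay at 10.36, 10.63 and 10.80 in control cows and at 10.46, 10.79 and 11.12 in GSGME cows, and the difference of 0.17 (SE 0.12) did not pass the test (limma p 0.173). RPLP2 differed by 0.11 (SE 0.16), and without GSGME_741, its highest cow at 10.52, by -0.012. RPL8, beside the centre that forms the peptide bond, and RPL29 differed by 0.12 (SE 0.14) and 0.13 (SE 0.12). RPL24, which contributes a bridge between the subunits, had the widest spread within groups (SD 0.68). Its signals ran from 4.02 (control_1031) to 6.19 in control cows and from 5.24 to 6.56 in GSGME cows, and its difference of 0.32 (SE 0.33) was 0.019 without control_1031.

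Of the small subunit genes, 1 passed the test. RPS3, which lies where the mRNA enters the ribosome and has also been described as a DNA repair protein, had signals of 10.37, 10.53 and 10.65 in control cows and of 10.59, 10.69 and 10.84 in GSGME cows. All GSGME cows lay above the control mean of 10.52, and 4 lay above the highest control. The difference of 0.18 (SE 0.077, 1.13-fold) had a limma p of 0.0375, and it was 0.14 (p 0.0815) after cyclic loess between the arrays and 0.13 (p 0.0921) with array weights. In leave-one-out fits the call was lost without GSGME_741, GSGME_821 or GSGME_1143 and without control_1017, control_819 or control_825, where the difference was 0.15 to 0.17 (p 0.0549 to 0.0867).

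RPS21 (0.16, SE 0.087, limma p 0.0874) and RPS29 (0.21, SE 0.12, limma p 0.0920) did not pass the test. RPS9, which served as a reference gene in the quantitative PCR of the study, lay at 10.57, 10.63 and 10.93 in control cows and at 10.62, 10.77 and 10.93 in GSGME cows. The groups covered almost the same range, and the difference was 0.06 (SE 0.085) with a 95% interval from -0.12 to 0.24. RPSA, a small subunit protein also known as a laminin receptor, differed by 0.085 (SE 0.15) with all cows and by -0.014 without GSGME_741. RPS23, at the decoding centre, had a low and widely spread signal of 3.55 to 5.08 in control cows and 3.93 to 5.34 in GSGME cows, and RPS2, at the mRNA entry, differed by 0.14 (SE 0.10).

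RPS14 and RPS4Y1 were the only genes with the lower mean in GSGME cows. RPS14, a protein of the platform of the small subunit, lay at 4.76, 4.97 and 5.62 in control cows and at 4.71, 4.82 and 5.16 in GSGME cows, a difference of -0.19 (SE 0.13, limma p 0.170). It was 1 of the 7 genes whose signal was not above that of the median transcript (6.07). Among its control values, control_1150 stood apart at 5.62, against 4.76 to 5.06 in the other control cows. The difference of RPS14 without that cow is not given. RPS4Y1 lay at 6.77, 7.22 and 7.52 in control cows and at 6.75, 6.98 and 7.19 in GSGME cows, a difference of -0.20 (SE 0.13, limma p 0.152). In both genes 5 of 6 GSGME cows lay below the control mean. Without control_1031, the lowest control cow of RPS4Y1, its difference was -0.28.

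**Figure D3:**
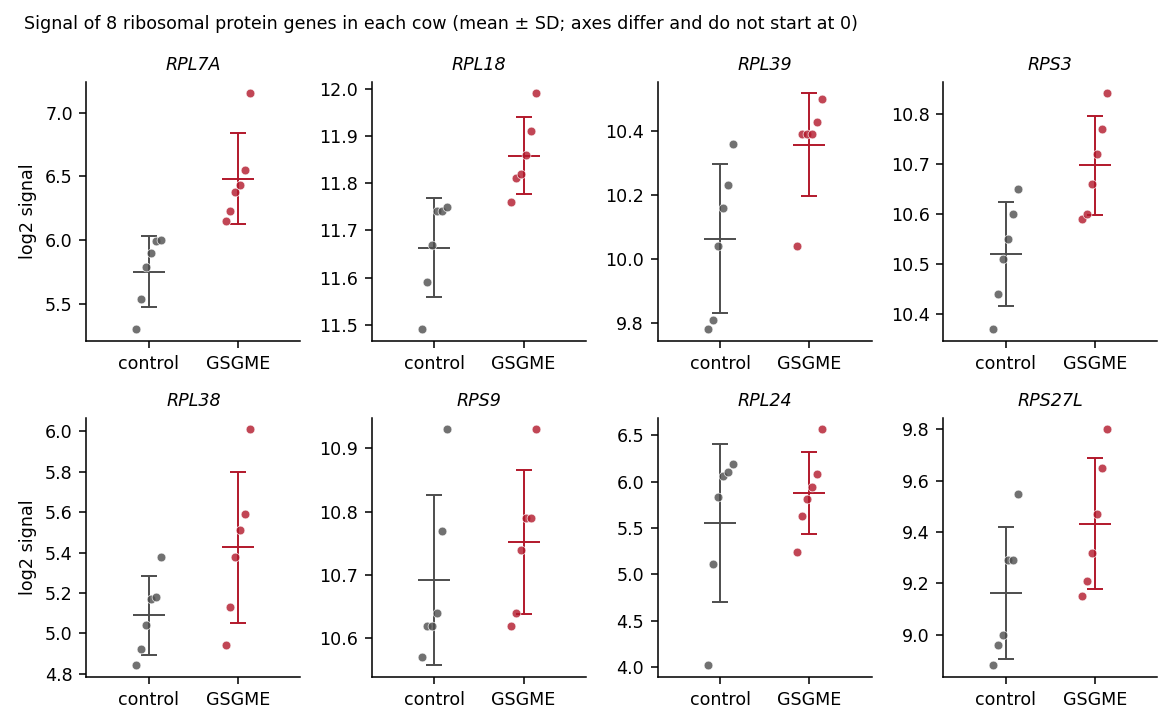
The log2 signal (y axis) of 8 ribosomal protein genes is plotted for each of 6 control and 6 GSGME cows (points), with the group mean and SD (bars); the axes differ between genes and do not start at 0. RPL7A and RPL18 are separated between the groups, RPL39, RPS3 and RPL38 overlap, RPS9 covers the same range in both groups, and RPL24 has 1 control cow at 4.02.

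Of the 44 genes, 7 were taken as copies or tissue forms of another ribosomal protein, by an L or Y after the number in the symbol. RPS4Y1, described above, was 1 of them, and 0 of the 7 passed the test in either direction. RPS27L, a paralog of RPS27 that in human cells is a target of p53, differed by 0.27 (SE 0.14, limma p 0.0691), while its other transcript differed by 0.11 (p 0.556). RPL22L1 lay at 5.24, 6.21 and 6.50 in control cows and at 6.06, 6.31 and 6.59 in GSGME cows, a difference of 0.26 (SE 0.18) that was 0.10 without control_825. Its parent RPL22, an RNA-binding protein, differed by 0.07 (SE 0.11). RPL26L1 and RPL7L1 differed by 0.19 (SE 0.12) and 0.10 (SE 0.088). RPL3L, which in mice replaces RPL3 in skeletal muscle and heart, and RPL10L, which stands in for RPL10 in the testis, differed by 0.038 (SE 0.12) and 0.11 (SE 0.13). RPL10L, with a mean of 3.71, lay at the level of olfactory receptor transcripts (median 3.67), which were taken here as a mark of low signal. The 37 genes without these forms had a median difference of 0.13, with 36 higher in GSGME cows.

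The remaining 16 genes did not pass the test. RPL13A, RPL14, RPL15, RPL19, RPL23, RPL28, RPL32, RPL34 and RPL36 of the large subunit had differences between 0.027 (RPL36) and 0.21 (RPL15). RPS7, RPS12, RPS15, RPS16, RPS18, RPS25 and RPS28 of the small subunit had differences between 0.0017 (RPS18) and 0.21 (RPS16). In RPL23 and RPL34 all 6 GSGME cows lay above the control mean, and in RPS18 it was 1 of 6.

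Averaged over the 44 genes, each cow gave 1 value. It was 8.59 in control_825, 8.73 in control_819, 8.80 in control_1031, 8.89 in control_1017, 8.93 in control_1041 and 8.96 in control_1150. In GSGME cows it was 8.81 in GSGME_1001, 8.86 in GSGME_1124, 8.96 in GSGME_821, 8.99 in GSGME_1047, 9.01 in GSGME_1143 and 9.16 in GSGME_741. The groups overlapped, with 4 GSGME cows above the highest control and 5 above the control mean. Group means were 8.82 ± 0.14 and 8.97 ± 0.12 (SD, n = 6 each), a difference of 0.15.

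The difference was smaller without the cows at the ends of this range, which follows from how these cows were chosen. GSGME_741 and control_825 were picked as the highest GSGME cow and the lowest control cow of these same values. GSGME_741 had the highest signal of the 12 cows in 23 of the 44 genes, control_825 the lowest in 18 and control_819 the lowest in 13. Without both GSGME_741 and control_825, the median difference of the 44 genes was 0.074, against -0.008 for all transcripts, 33 genes had the higher mean in GSGME cows (against 47.3% of all transcripts) and 1 gene (RPL7A) passed at p alone (against 1.86% of all transcripts called higher). With single cows left out, the median lay between 0.10 (without control_825) and 0.18 (without GSGME_1001). The count of genes higher at p alone was 2 without GSGME_741, control_819 or control_825, where 2.11%, 3.88% and 2.29% of all transcripts were called higher, against 5 with all cows.

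The cows control_825 and GSGME_741 stood apart in some other measures too. Beside its narrow array, control_825 had the lowest array weight (0.4312), and its transcripts above the median transcript deviated from their 12-cow means by a median of -0.067. GSGME_741 had the highest mean over the 7 red blood cell markers measured, 5.70 against 4.84 to 5.23 in the other 11 cows. Of 14 T and NK cell markers, 3 were higher in GSGME cows at p alone and 0 lower, against 2.68% and 3.17% of all transcripts. The mean was higher in GSGME cows in 8 of the 14 and not in 6 (median difference 0.08). Their summed signal ran from 76.4 to 81.8 in control and from 80.2 to 86.7 in GSGME cows. The highest was GSGME_821, which was not at an end of the range for the ribosomal protein genes. It also had the highest macrophage (9.63), stellate (7.84) and bile duct (7.33) marker means. JCHAIN, of antibody-secreting plasma cells, was higher by 0.66 (limma p 0.0200), and CD5L, of liver macrophages, by 0.23 (limma p 0.0462). Each was the only gene of its list called at p alone. Of 9 B and plasma cell markers, 5 had the higher mean in GSGME cows and 4 did not (median difference 0.022). Of 12 macrophage and Kupffer cell markers, 9 had the higher mean and 3 did not (median difference 0.074). With group means removed, the correlation of a marker list's mean with the mean of the ribosomal protein genes over the 12 cows was -0.30 for T and NK cells, 0.07 for B and plasma cells, 0.44 for macrophages and Kupffer cells, 0.43 for neutrophils and 0.32 for red blood cells. It was 0.31 for endothelial, -0.05 for stellate, 0.06 for bile duct and 0.24 for hepatocyte markers. With each cow's mean over the immune cell markers in the model, the median difference of the ribosomal protein genes was 0.12, with 40 of 44 higher in GSGME cows. With array weights it was 0.10, with 38 of 44 higher. The part of red blood cells in the result was not tested, and in a biopsy more ribosomal protein mRNA per cell and more cells rich in it cannot be told apart.

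**Figure D4:**
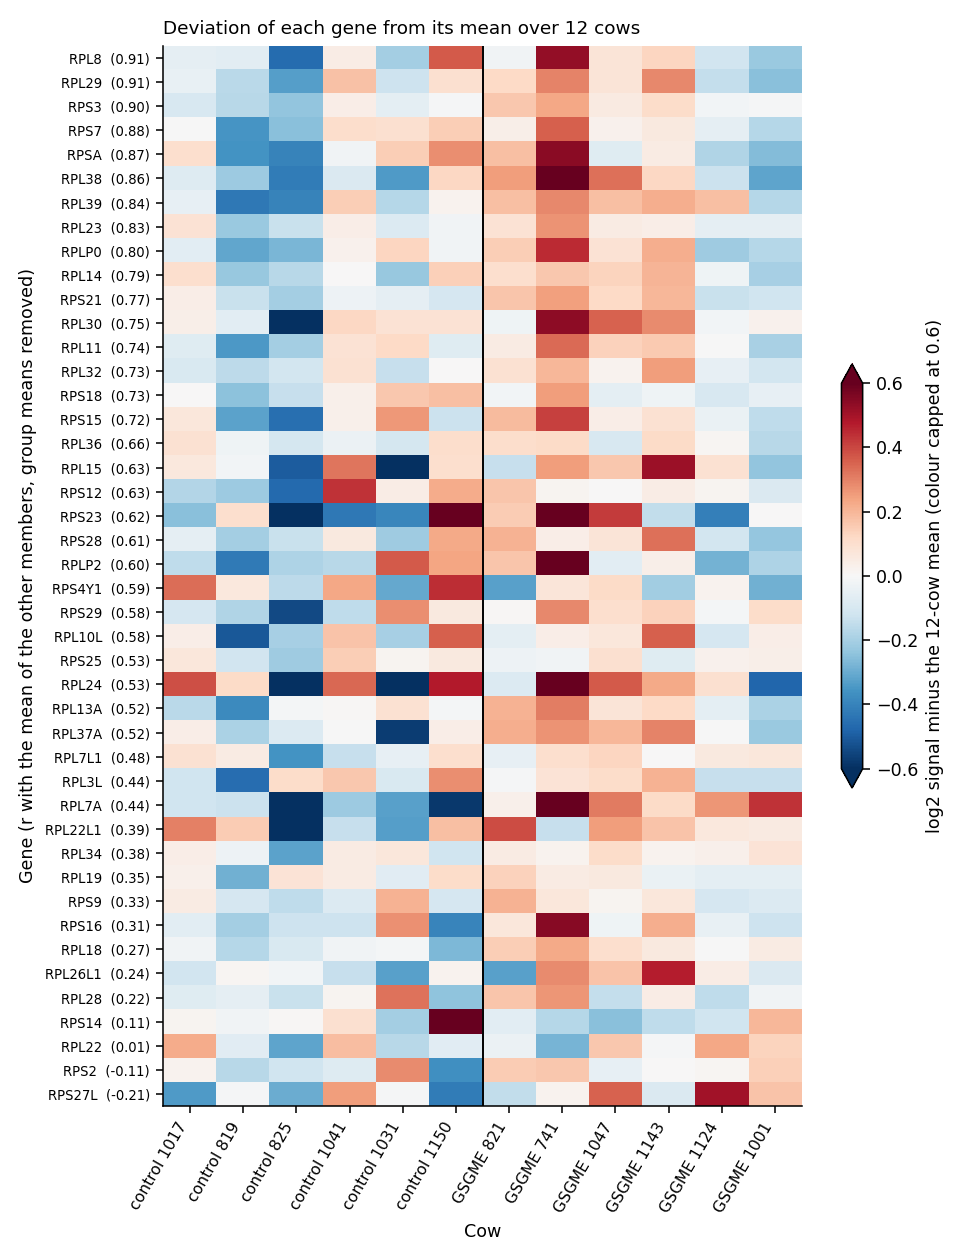
Each row is 1 of the 44 ribosomal protein genes and each column 1 cow, 6 control to the left and 6 GSGME to the right of the line. Colour is the log2 signal minus the gene's 12-cow mean, capped at 0.6, and rows are ordered by their correlation with the mean of the other genes of the family. The cows control_825 and control_819 are low and GSGME_741 is high in most rows of the upper part, while rows at the bottom do not follow this order of cows.

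With group means removed, the ribosomal protein genes varied together between cows of a group. The correlation of pairs of genes over the 12 cows had a median of 0.36, and it was above 0 in 82.1% of the 946 pairs. A gene correlated with the mean of the others with a median of 0.60, and 29 of 44 genes lay above 0.5. For the 17966 genes outside the family, the correlation with the mean of the ribosomal protein genes had a median of -0.03, and 7.15% lay above 0.5. All genes of a cow share 1 array and its normalization, and values are descriptions without a test. Pairs within the large subunit (median 0.38), within the small subunit (0.38) and across the subunits (0.35) had like correlations.

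RPL8, RPL29 and RPS3 followed the mean of the others most closely, with correlations of 0.91, 0.91 and 0.90. RPS27L (-0.21), RPS2 (-0.11) and RPL22 (0.01) did not follow it. RPS27L was highest in GSGME_1124 and GSGME_1047 at 9.80 and 9.65, neither of which was at an end of the range for the family. The RNAs of RPSA and RPS7 had the highest correlation of a pair (0.93), and those of RPS16 and RPS14 the lowest (-0.64). RPS2 and RPS16 were both high in control_1031 (12.56 and 11.06) and low in control_1150 (11.91 and 10.39), where RPS14 had its highest signal (5.62).

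The genes outside the family whose pattern over the 12 cows was most like its mean, again with group means removed, were TRIM44 (0.92), EXOC7 (0.90), STOML1 (0.90), MIR2284A (0.89) and SPTAN1 (0.88). They are the highest of 17966 correlations, and 0 of these 5 differed between the groups at p under 0.05, with SPTAN1 the nearest (0.20, limma p 0.0762).

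Genes that work with the ribosome were compared in the same way. Of the other genes of the TOP mRNA class, 16 were measured, mostly translation factors, and all 16 had the higher mean in GSGME cows with a median difference of 0.16, against 45.2% and -0.015 for all transcripts. At p alone, 2 of them were higher and 0 lower, against 2.68% and 3.17% of all transcripts. EEF2, which moves the ribosome along the mRNA, lay at 11.19 ± 0.12 in control and at 11.40 ± 0.16 with GSGME (SD over 6 cows, limma p 0.0317), and EIF4B, a helper of the helicase of initiation, at 10.12 ± 0.34 and 10.47 ± 0.26 (limma p 0.0418). EIF3E (0.27, limma p 0.0790) and VIM (0.37, limma p 0.126) did not pass, and PABPC1 and TPT1 differed by 0.11 and 0.015. Of the 16 genes, 0 passed the study's criterion. Without both GSGME_741 and control_825, 14 of the 16 had the higher mean in GSGME cows (against 47.3% of all transcripts), with a median difference of 0.092, and 0 passed at p alone. Their correlation with the mean of the ribosomal protein genes had a median of 0.45, against -0.03 for all genes outside the family. The same median was 0.27 for ribosome biogenesis factors and 0.22 for mitochondrial ribosomal proteins, which are described next.

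For the factors that assemble ribosomes the median difference was close to 0. Over all transcripts, 45.2% had the higher mean in GSGME cows and the median difference was -0.015. At p alone, 2.68% of all transcripts were called higher and 3.17% lower. Of 116 ribosome biogenesis factors, 53 had the higher mean in GSGME cows, the median difference was -0.0067, and 1 was higher (LYAR, 0.24) and 1 lower (RCL1, -0.30) at p alone. Of the 75 mitochondrial ribosomal proteins, which serve the separate ribosome of that organelle, 42 had the higher mean, the median difference was 0.018, and 1 was higher (MRPL45, 0.25) and 2 lower (MRPS25 and MRPL36, both -0.23). Of 41 genes of the mTORC1 pathway and the S6 kinases, 22 had the higher mean (median difference 0.0033), and 1, TBC1D7 (0.18), was higher. RACK1, a signalling scaffold on the small subunit, differed by 0.09 (SE 0.085), and FAU, which encodes RPS30 fused to a ubiquitin-like protein, by -0.03 (SE 0.12).

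**Figure D5:**
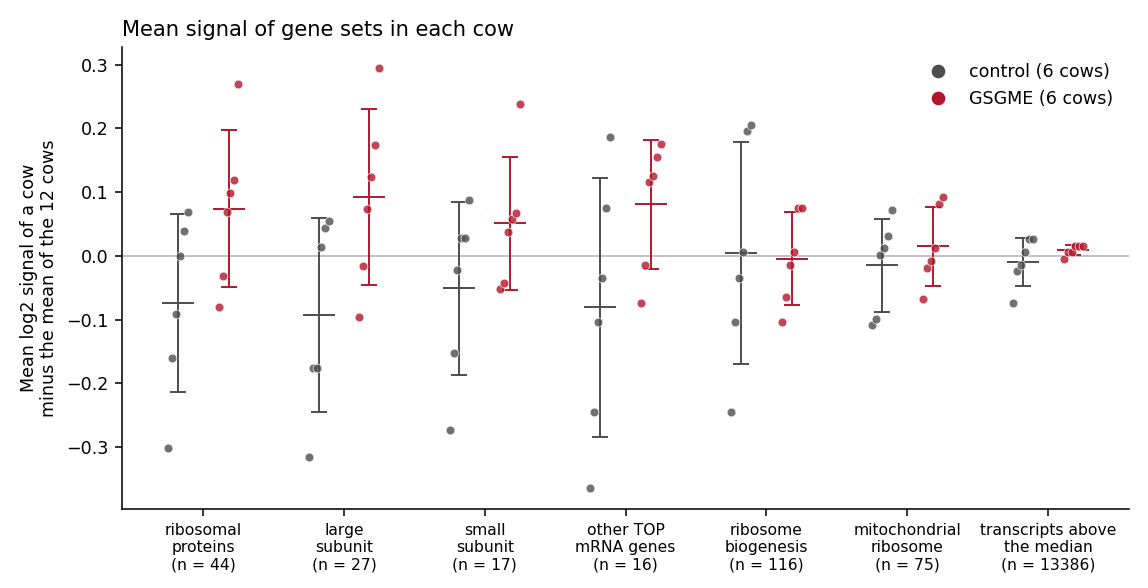
Each point is the average log2 signal of 1 cow in a set of genes, minus the mean of the 12 cows (y axis), for 7 sets of genes (x axis), with the group mean and SD of 6 control and 6 GSGME cows. GSGME means lie above control means for the ribosomal proteins, both subunits and the other TOP mRNA genes, with overlapping cows in each, and close to them for ribosome biogenesis factors, mitochondrial ribosomal proteins and transcripts above the median.

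A further 46 transcripts carried a ribosomal protein symbol beside at least 1 other symbol, and they were left unnamed. Of these, 41 had the higher mean in GSGME cows (against 45.2% of all transcripts), and the median difference was 0.087. At p alone, 7 were higher and 0 lower (against 2.68% and 3.17% of all transcripts), and 6 were higher in the methods' t-test (against 2.38%). Some of the 7 shared their number of symbols (8), difference (0.20) and limma p (0.0481), so that these calls may not be separate. Without both GSGME_741 and control_825, 34 of the 46 had the higher mean (against 47.3% of all transcripts). The median was then 0.049 and 0 were called higher (against 1.86% of all transcripts). In the mean of these transcripts too, GSGME_741 was the highest GSGME cow and control_825 the lowest control cow, so that a smaller difference follows from the choice. Of the symbols that the rule could take, 33 were found only on such transcripts, among them RPL5, RPLP1 and RPS4X, and they were not analysed here as single genes.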

How the data were processed

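The authors scanned the arrays and computed cell intensities with Affymetrix software, and used RMA for background correction, normalization and summary of probes. The authors deposited a log2 signal, rounded to 2 decimals, for each of 26773 transcripts in each of 12 cows (1 array per cow), and no filter on dim transcripts was applied here. Array number limits the precision. Symbols came from the platform annotation (18457 transcripts with 1 symbol, 688 with several, 7628 with none). All 44 gene IDs matched the RefSeq gene table of the bovine genome. Groups were read from the sample labels.

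All transcripts were fitted with limma 3.58.1 under R 4.3.3 (two-sided, lmFit and eBayes), with Benjamini-Hochberg adjustment over 26773 transcripts, and calls were made at unadjusted p under 0.05, alone or with a fold beyond 1.3. The fit was tested on simulated data. Sets were described by counts and medians. Correlations are Pearson's over 12 cows with group means removed. Alternatives were the methods' t-test (unpaired, equal variance), eBayes with trend and robust, cyclic loess, array weights, other fold thresholds, other transcripts per gene, immune markers as a covariate and leaving out each cow. A further 3 were added after seeing the data: transcripts with several symbols in place of the members, subtraction of the median of transcripts above the median transcript, and leaving out both GSGME_741 and control_825.

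Named were the 10 genes with the lowest limma p, RPS9, RPSA, stalk proteins, RPL11, copy forms with parents, the 3 highest and 3 lowest correlations with the family, the 3 widest spreads, and 3 genes per related list with the lowest p; RPS14, RPS16, VIM, PABPC1 and TPT1 were named after their values were seen. The genes and lists were chosen with earlier results of these data known. Promoter and protein sequences were not used here. Python 3.11.15, numpy 2.4.6, pandas 2.3.3 and matplotlib 3.10.9 were used for the other steps.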

Additional observations from a re-analysis of the deposited data

Results flagged for a closer look

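Among 68 groups of 6 cows tested for a value standing apart by Dixon's ratio, 3 had one, and chance gives about 1 in 20. These 68 groups did not cover every ribosomal protein gene, and RPS14 and RPS18 were not among them. Over all 88 groups of the ribosomal protein genes, 5 had such a value. RPL30 in control_825 was the lowest control value at 5.19, with the nearest control cow at 6.55, and the same cow had the narrowest array. RPL39 in GSGME_1001 was the lowest GSGME value at 10.04, with the nearest at 10.39. RPL10L in GSGME_1143 was the highest GSGME value at 4.07, with the nearest at 3.78, for a gene at the level of olfactory receptor transcripts. Outside the 68 groups, RPS14 in control_1150 was the highest control value at 5.62, with the nearest at 5.06. RPS18 in GSGME_741, also outside them, was the highest GSGME value at 11.11, with the nearest at 10.84.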

How the results depend on the processing

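The median difference of the ribosomal protein genes stayed above 0 in every alternative run, from 0.074 (without both GSGME_741 and control_825, chosen after seeing the data) to 0.18 (without GSGME_1001). Relative to the median of all transcripts it lay between 0.082 and 0.19. The number of genes with the higher mean in GSGME cows ran from 38 to 42 when single cows were left out and was 38 with array weights and 40 with cyclic loess, where all transcripts gave 50.7%. The count at the study's criterion was 1, where 322 of all 26773 transcripts were called higher. It was 2 with cyclic loess (375 transcripts) and 1 to 3 with single cows left out (271 to 468 transcripts). At a fold beyond 1.2 it was 3, for which no share of all transcripts is given. The count of genes higher at p alone was 5, against 2.68% of all transcripts. It was 2 with array weights (against 2.45%), 1 without both cows (1.86%) and 2 to 7 with single cows left out (2.11% to 3.88%). It was 8 with every transcript of every symbol counted, and the added calls were all transcripts of RPL39 with values identical to the one used. The count of genes lower at p alone ran from 0 to 1, the 1 being RPS4Y1 without control_1031. The median correlation of pairs, 0.36, ran from 0.31 to 0.44. Over all transcripts, cyclic loess turned 718 higher and 849 lower calls at p alone into 911 and 656. Among the 27 named genes, RPL3L changed sign with array weights (-0.0011) and without control_819 (-0.05, up to 0.10 without other cows), and RPSA (-0.014, up to 0.15) and RPLP2 (-0.012, up to 0.19) changed sign without GSGME_741; the cause was not tested. Genes outside the named ones also changed sign in some of these fits and are given only in the counts above. No paired analysis was possible because the groups share no cow and no replicate number.

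No single gene had an adjusted p that passed (limma, Benjamini-Hochberg), and 6 cows per group in 1 array each leave most single differences of under 1.2-fold within the spread between cows. Signals near those of olfactory receptor transcripts, as for RPL10L, lie close to the background of the array. Cell makeup was covered only by the immune marker covariate (median difference 0.12), and array quality only by array weights (median difference 0.10).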
